A study of Oryza sativa with 4 samples.

Results

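The genes described here are the members of the ubiquitin and proteasome system on a rice oligonucleotide array. They were taken as every non-control probe whose description names ubiquitin, an F-box, the proteasome, a cullin, SKP1 or SUMO, after dropping descriptions that name ubiquinone or auxin. This gave 154 cDNAs of 21495 non-control probes. The study asked which genes lie downstream of RFL, the rice counterpart of the floral regulators FLORICAULA and LEAFY. RNA from branching panicles of transgenic rice carrying a double-stranded RNA interference construct against RFL (dsRNAi, 2 arrays) or an RFL antisense construct (antisense, 2 arrays) was hybridised against RNA from wild type TP309 panicles on 2-colour Agilent arrays. In each construct, array 1 carried transgenic RNA in Cy5 and array 2 carried it in Cy3. The promoters that drive the constructs, the number of lines and the number of plants in each RNA pool are not given in the sources used here. The design speaks of independent RNA pools, but it is not clear whether both arrays of a construct carry the same pools. The p-values therefore measure the spread between arrays, which may be technical. The title of dsRNAi array 2 names a Sample B, while that of antisense array 2 names only a swap. Whether the pairs differ in kind is not stated, and the test gives both a shared estimate of the spread.

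Ubiquitin is a small protein that marks other proteins. An activating enzyme (E1) charges it, a conjugating enzyme (E2) carries it and a ligase (E3) attaches it to the target. In SCF ligases a cullin and SKP1 hold an F-box protein, which picks the target. Chains of ubiquitin send the target to the 26S proteasome, in which the 19S regulatory particle recognises and unfolds it and the 20S core particle cuts it up. Deubiquitinating enzymes take ubiquitin off again, and SUMO is a related modifier with its own enzymes. In Arabidopsis flowers the F-box protein UFO acts together with LEAFY, and in rice panicles its counterpart is APO1. No member's description names either of them. The descriptions are those of the array design and often name the closest sequence of another species, so a cDNA called, for example, UBP21 type below is a rice cDNA that carries the Arabidopsis name. All sequences are named only, since none of their letters were among the data used.

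Signal was well above background for 137 to 148 of the 154 members in the transgenic channel of an array and for 128 to 139 in the wild type channel. Over all probes the ranges were 16106 to 18191 and 14722 to 17270. No probe description names RFL, so its own level is not analysed here. Probes whose description names MADS or knotted were taken as panicle and floral markers. Homeobox genes of other types were not searched. The markers were well above background on all 4 arrays for 30 of 39 in transgenic and 28 of 39 in wild type panicles. The search also caught 4 clones of other description, which are left out of these counts. In the mean of both constructs, where 41.7% of all tested probes were called by the test given below, 15 of 33 panicle and floral markers were called higher and 6 lower in transgenic panicles (63.6%). The counts were 5 and 8 of 32 for green tissue (40.6%) and 3 and 0 of 7 for anther and pollen (42.9%). The vascular and secondary wall list, taken by the words lignin, cinnam, cellulose synthase or laccase, had 10 higher and 23 lower of 56 (58.9%). It takes every cellulose synthase, whichever type of wall it builds, so the list need not mark that tissue. Its summed log2 level was 15.2 to 15.3 in transgenic and 15.7 to 15.9 in wild type channels. The seed list had 0 higher and 1 lower of 9 (11.1%). In the other lists the summed levels of transgenic and wild type channels overlapped. They were 16.1 to 16.2 and 15.8 to 16.3 for all clones of the floral search, and 14.6 to 15.5 and 14.4 to 15.9 for green tissue. For anther and pollen they were 13.5 to 13.9 and 12.8 to 13.5, and for seed 10.8 to 10.9 and 10.7 to 11.1. Whether these counts reflect the tissue make-up of the panicles was not tested, nor was their part in the results for the members. Fewer cells of a type and less RNA per cell cannot be told apart in such samples. The correlation between the arrays of a pair was lower over the members than over all probes. Across the 146 tested members, Pearson's r between the 2 log2 ratios was 0.51 for the dsRNAi pair and 0.86 for the antisense pair, against 0.83 and 0.93 across 17997 probes. The members spanned a narrower range of ratios, on which r depends. The standard deviation of their log2 ratios was 0.34 in dsRNAi and 0.57 in antisense panicles, against 0.56 and 0.81 over all probes. The median SE was 0.12 for the members and for all probes in either construct. Both constructs share a single estimate of the spread for each probe, so this SE cannot compare the dsRNAi pair with the antisense pair. The paired values share probes and a construct, and probes are not independent replicates.

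Log2 ratios of transgenic over wild type were tested with limma, and a probe was called when its Benjamini-Hochberg adjusted p over all 18094 tested probes was under 0.05. Of the 154 members, 146 passed the filter on dim probes and 8 did not. In the mean of both constructs, 42 of the 146 were called (28.8%), 29 higher and 13 lower, against 41.7% of all tested probes, of which 20.4% were higher and 21.3% lower. A change of at least 2-fold was called for 7 members (4.79%), against 8.15% of all probes. The median log2 ratio of the members was 0.02, against -0.00 over all probes. The interquartile range was -0.11 to 0.23 for the members and -0.22 to 0.21 for all probes. All 4 arrays gave the same sign for 52 members (35.6%), against 44.3% of all probes.

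Taken one construct at a time, the share of members called was again below that of all probes. In dsRNAi panicles 13 members were called (8.9%), 7 higher and 6 lower, against 25.8% of all probes (11.2% higher and 14.6% lower). In antisense panicles 35 were called (24%), 23 higher and 12 lower, against 37.2% of all probes (18.9% higher and 18.3% lower). Calls in both constructs in the same direction were made for 5 members higher and 5 lower (6.85%), against 16.3% of all probes. The counts moved when a single array was left out. Without antisense array 1, 18 members were called higher in the mean and 11 in antisense panicles. A construct left with 1 array is assumed to vary like the other construct, whose pair alone then gives the spread. Without dsRNAi array 1, 4 were called higher and 10 lower in dsRNAi panicles.

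Some settings ended many of these calls. When both dye-swapped arrays of each construct were averaged to 1 value, 0 of the 42 calls in the mean were kept and 0 of 18094 probes were called by limma, with 12 members at an unadjusted p under 0.05. When the construct was treated as a random block, 9 of the 42 calls in the mean were kept: AK066799, AK112030, AK104148 and AK066232 among the conjugating enzymes, AK067422, AK069300, AK067024, and the proteasome cDNAs AK109489 and AK058779. That setting called 6.16% of members and 14.4% of all probes. Centring each array on its median in place of the intensity-dependent normalization kept 5 calls, those of AK066799, AK112030, AK104148, AK067422 and AK073278. Median centring called 3.42% of members and 6.17% of all probes in the mean, so calls were lost over the whole array in both settings.

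**Figure D1:**
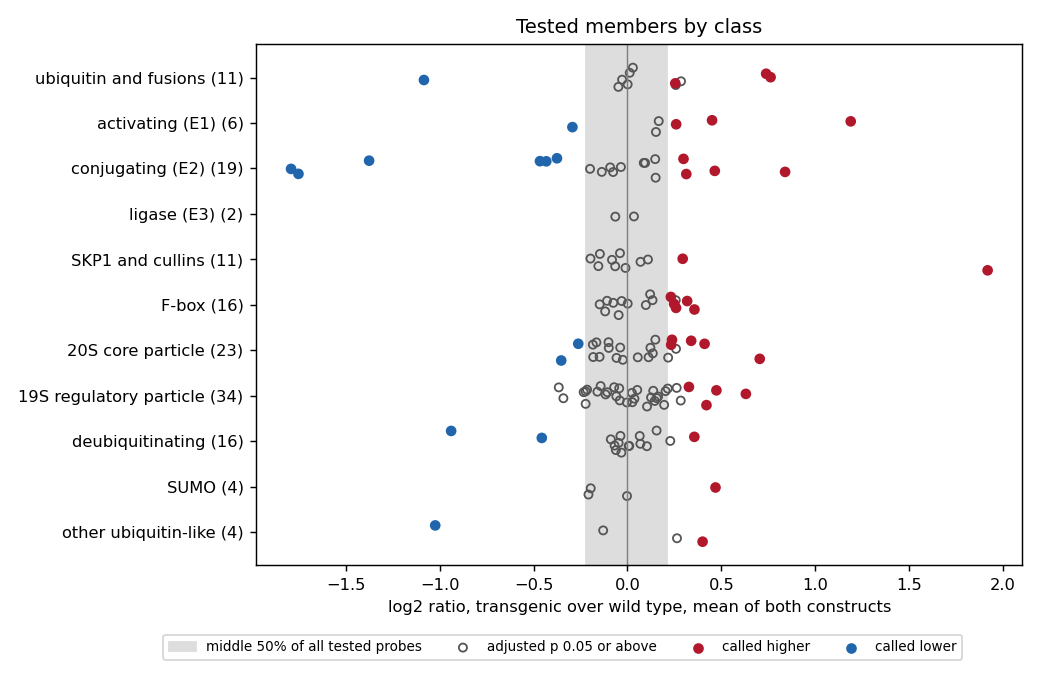
Log2 ratio of transgenic over wild type panicles (x axis, mean of both constructs) for the 146 tested members, each point 1 cDNA, in rows by class with the number tested; points are spread vertically only for legibility, red and blue points were called higher and lower (limma), open points were not called, and the grey band is the interquartile range of all tested probes. The conjugating enzymes reach furthest to the left, with 3 cDNAs at -1.38 or below, and a single SKP1 cDNA lies furthest to the right at 1.92.

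Ubiquitin itself is encoded by polyubiquitin genes, which hold several copies head to tail, and by fusions to ribosomal proteins. Of 11 tested cDNAs of this class, 3 were called higher and 1 lower in the mean (36.4%, against 41.7% of all probes). Of the cDNAs described as the rice rub1 polyubiquitin, AK067024 rose. It had log2 ratios of 0.65 and 0.46 on the dsRNAi arrays and 1.03 and 0.81 on the antisense arrays. Its mean was 0.74 (SE 0.085, adjusted p = 0.000314), and it was called in each construct. AK061956 had -0.00 and 0.59 in dsRNAi and 0.65 and 1.80 in antisense panicles, with a mean of 0.76 (SE 0.18, adjusted p = 0.0124). This spot was saturated in 3 of 4 transgenic and 2 of 4 wild type channels, and on every array in at least 1 channel. With saturated spots left out 0 of its arrays remained and it could not be tested, so its ratios and its call are not a measured rise.

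Another rice cDNA, AK058319, described as a partial poly-ubiquitin, moved the other way. It had -0.29 and -1.18 on the dsRNAi arrays and -1.12 and -1.75 on the antisense arrays. Its mean was -1.08 (SE 0.16, adjusted p = 0.00115), with all 4 arrays below 0. AK108323, described as a fusion of ubiquitin with ribosomal protein S27a, was called higher (mean 0.25, adjusted p = 0.0477), but it was not well above background on any wild type channel. Measured against the lowest signal well above background, it was at least 1.16-fold higher in transgenic panicles. The other 7 tested cDNAs of the class had means between -0.05 and 0.29 and did not pass the test.

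Of the 6 cDNAs described as E1 enzymes, 3 were called higher and 1 lower in the mean (66.7%, against 41.7% of all probes). The largest rise was that of AK067422, described by At5g45900, which in Arabidopsis is ATG7, the E1-like enzyme of autophagy. Its log2 ratios were 1.17 and 1.21 in dsRNAi and 1.33 and 1.05 in antisense panicles, a narrow range with every array above 1. The mean was 1.19, or 2.28-fold (SE 0.085, adjusted p = 2.43e-05). The rise was 1.19 in either construct.

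The other E1 calls were less even. AK074007, described as a wheat ubiquitin-activating enzyme, had -0.18 and -0.33 in dsRNAi and 1.12 and 1.19 in antisense panicles, so the constructs lay on opposite sides of 0. Its mean of 0.45 (adjusted p = 0.00282) came from the antisense arrays. The other cDNAs of the same description, AK104898 and AK111781, had means of 0.17 and 0.15 and were not called. AK072668 is described by At2g21470, which in Arabidopsis is the large subunit of the SUMO-activating enzyme. It had 0.08 and 0.11 in dsRNAi and -0.57 and -0.79 in antisense panicles, with a mean of -0.29 (adjusted p = 0.0228). That call was lost without antisense array 2 (adjusted p = 0.151), without dsRNAi array 1 (0.0611) and without dsRNAi array 2 (0.0521). AK111924, described by At4g24940, a small subunit of the SUMO-activating enzyme in Arabidopsis, was called higher at 0.26 (adjusted p = 0.0431).

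Conjugating enzymes carried the largest falls of the whole set. Of 19 tested, 6 were called lower and 4 higher in the mean (52.6% called, against 41.7% of all probes), and 3 fell by more than 2-fold. AK112030 and AK104148 are both described as a wheat ubiquitin carrier protein, another name for an E2. AK112030 had -1.62 and -1.54 on the dsRNAi arrays and -1.80 and -2.05 on the antisense arrays. Its mean was -1.75, a 3.37-fold difference (SE 0.084, adjusted p = 3.56e-06). AK104148 had -1.46 and -1.39 in dsRNAi and -1.30 and -1.35 in antisense panicles, with a mean of -1.38, or 2.59-fold (SE 0.077, adjusted p = 7.36e-06). All values of the pair were -1.30 or below, and those of AK104148 lay within -1.46 to -1.30.

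AK066799 had the lowest mean of any member, at -1.79, a 3.46-fold difference (SE 0.097, adjusted p = 6.19e-06). Its description is the putative Arabidopsis E2 At2g36060. Its ratios were -0.97 and -1.40 in dsRNAi and -2.31 and -2.48 in antisense panicles, below 0 throughout and lower in every antisense than in every dsRNAi array. Smaller falls were called for AK105320, described as UBC20, an Arabidopsis E2 (mean -0.47, adjusted p = 0.0129), for AK105227, a poplar E2 (mean -0.43, adjusted p = 0.00696), and for AK103809, an Arabidopsis E2 (mean -0.38, adjusted p = 0.0102). Each of these had the same sign on all 4 arrays.

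OsUBC5b (AK066232), a rice E2, rose evenly. It had 0.80 and 1.00 in dsRNAi and 0.85 and 0.71 in antisense panicles, a mean of 0.84 or 1.79-fold (SE 0.083, adjusted p = 0.000139). AK059627, described as a maize E2, rose by 0.46 (SE 0.11, adjusted p = 0.0127), with 0.22 and 0.35 in dsRNAi and 0.96 and 0.33 in antisense panicles. AK058360, which shares that description, had a mean of 0.15 and was not called. AK108167, described as a putative E2 numbered 11, was called higher in the mean (0.31, adjusted p = 0.0219) and was not well above background in wild type on either antisense array, where it was at least 1.38-fold higher. The count of E2 cDNAs called higher was 1 without antisense array 1 and 5 without antisense array 2, while 5 to 7 were called lower whichever array was left out.

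**Figure D2:**
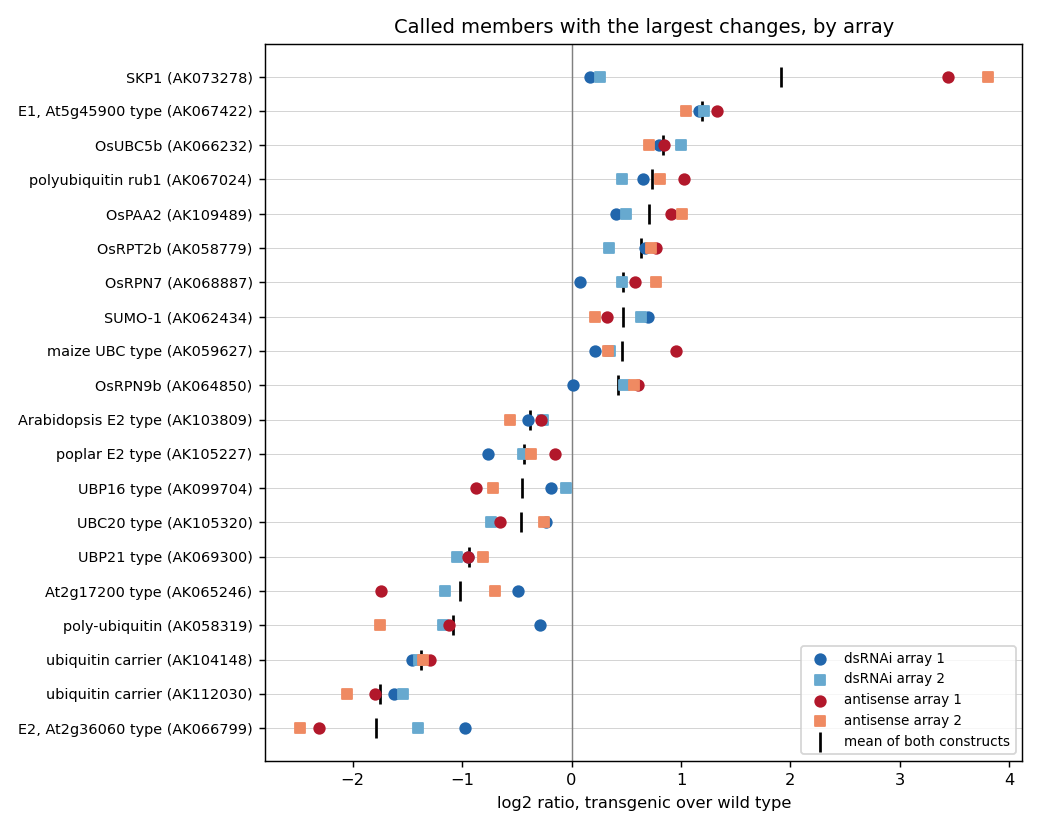
Log2 ratio of transgenic over wild type panicles (x axis) on each of the 4 arrays for the 10 largest rises and 10 largest falls among called members with the same sign on all arrays. Blue symbols are dsRNAi arrays, red and orange symbols antisense arrays, and the black bar is the mean of both constructs. The arrays of AK067422 and AK104148 lie close together, while SKP1 (AK073278) splits into 0.16 and 0.26 for dsRNAi and 3.44 and 3.81 for antisense.

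Members of SCF ligases and F-box proteins mostly stayed near 0, with one exception. Of 11 tested SKP1 and cullin cDNAs 2 were called in the mean (18.2%, against 41.7% of all probes), both higher. AK073278, described as a Medicago SKP1, had 0.16 and 0.26 on the dsRNAi arrays and 3.44 and 3.81 on the antisense arrays. The antisense ratio of 3.62 (SE 0.13, adjusted p = 1.39e-06) was the largest of any member in either construct, and the dsRNAi ratio of 0.21 was not called (adjusted p = 0.28). The mean of 1.92 (adjusted p = 3.4e-06) therefore describes neither construct, and it lost its call with the construct as a random block (adjusted p = 0.123). The 2 tested cDNAs described as barley skp1, AK064628 and AK102131, had means of -0.01 and -0.15. The second call was AK073477, described as the pea cullin cul1 (0.36 and 0.11 in dsRNAi, 0.35 and 0.35 in antisense panicles, mean 0.29, adjusted p = 0.0243). The other 3 cul1 cDNAs had means between -0.16 and 0.11 and were not called.

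F-box cDNAs changed little. Of 16 tested, 5 were called higher and 0 lower (31.2%, against 41.7% of all probes), and the largest mean was 0.36. AK059536, described as the auxin receptor TIR1 of aspen, had 0.25 and 0.57 in dsRNAi and 0.14 and 0.46 in antisense panicles (mean 0.36, SE 0.096, adjusted p = 0.0199). Another TIR1 cDNA, AK073912, had a mean of -0.08 and was not called. AK103855, described as the leucine-rich repeat F-box protein AtFBL14, had 0.40 and 0.28 in dsRNAi and 0.42 and 0.18 in antisense panicles (mean 0.32, SE 0.084, adjusted p = 0.0185). Of the other tested AtFBL14 cDNAs, AK073020 was called at 0.26 (adjusted p = 0.0461), and AK068929 and AK101082 had 0.13 and -0.03. AK065478, described as ORE9, the MAX2 protein of strigolactone signalling in Arabidopsis, was called at 0.23 (adjusted p = 0.0447), and the other ORE9 cDNA, AK107102, had -0.15. The fifth was AK070008, AtFBW2 type, at 0.25 (adjusted p = 0.0496). The F-box count rested on small margins: 1 to 3 were called higher when any single array was left out. Taken one construct at a time, 0 F-box cDNAs were called in dsRNAi panicles, against 25.8% of all probes. In antisense panicles 1 was called, AK070008 (6.25%, against 37.2% of all probes).

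The 2 cDNAs described as E3 ligases of the E6-AP type were not called in any comparison with wild type. AK110355, the brighter, had -0.02 and -0.04 in dsRNAi and -0.09 and -0.12 in antisense panicles (mean -0.06, SE 0.077, adjusted p = 0.541). AK110192 was not well above background on any wild type channel and had a mean of 0.03.

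Proteasome subunits formed the largest class, with 59 cDNAs, 57 of them tested. In the mean 9 were called higher and 2 lower (19.3%, against 41.7% of all probes), and none reached 2-fold. The median was 0.04 and the extremes -0.37 and 0.70. Against wild type, 2 were called higher and 0 lower in dsRNAi panicles (3.51%, against 25.8% of all probes). In antisense panicles 11 were called higher and 0 lower (19.3%, against 37.2%). The medians were -0.05 in dsRNAi and 0.12 in antisense panicles. Whether the 2 constructs differed was tested cDNA by cDNA, and no proteasome cDNA was called for dsRNAi minus antisense. The count called lower in the mean was 7 without dsRNAi array 1 and 0 without antisense array 1.

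The 20S core particle has alpha rings that gate the chamber and beta rings that hold the cutting sites. Of its 23 tested cDNAs, 5 were called higher and 2 lower in the mean (30.4%, against 41.7% of all probes). OsPAA2 (AK109489), an alpha 1 subunit, rose most, with 0.41 and 0.50 in dsRNAi and 0.90 and 1.01 in antisense panicles (mean 0.70, or 1.63-fold, SE 0.079, adjusted p = 0.000261). It was called in each construct. The alpha 2 cDNA AK101195 (OsPAB1, mean 0.41), the alpha 3 cDNA AK067977 (mean 0.34), the beta 7 cDNA AK071380 (OsPBG1, mean 0.24) and the beta 4 cDNA AK060531 (OsPBD1, mean 0.23) were the other rises. The falls were AK103126 (OsPBB1, a beta 2 subunit, mean -0.35, adjusted p = 0.0365) and AK102448 (the second OsPAA2 cDNA, mean -0.26, adjusted p = 0.0455). Beta 2 is a catalytic subunit. The cDNAs of the other catalytic subunits, OsPBA1 (beta 1) and OsPBE1 (beta 5), had means between -0.10 and -0.02 and were not called.

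In the 19S regulatory particle 4 of 34 were called higher and 0 lower in the mean (11.8%, against 41.7% of all probes). OsRPT2b (AK058779), an ATPase of the base ring, had 0.67 and 0.34 in dsRNAi and 0.77 and 0.73 in antisense panicles (mean 0.63, SE 0.088, adjusted p = 0.000848), and was called in each construct. The lid subunits OsRPN7 (AK068887), with 0.08 and 0.46 in dsRNAi and 0.58 and 0.77 in antisense panicles (mean 0.47, adjusted p = 0.00528), and OsRPN9b (AK064850), with 0.02 and 0.48 in dsRNAi and 0.61 and 0.58 in antisense panicles (mean 0.42, adjusted p = 0.0104), rose in the mean and in antisense panicles. OsRPN3 (AK058374), another lid subunit, was called at 0.33 (adjusted p = 0.0111). The lowest means were those of 2 OsRPT1 cDNAs, AK109151 at -0.37 and AK100060 at -0.34, which did not pass the test (adjusted p = 0.147 and 0.184).

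**Figure D3:**
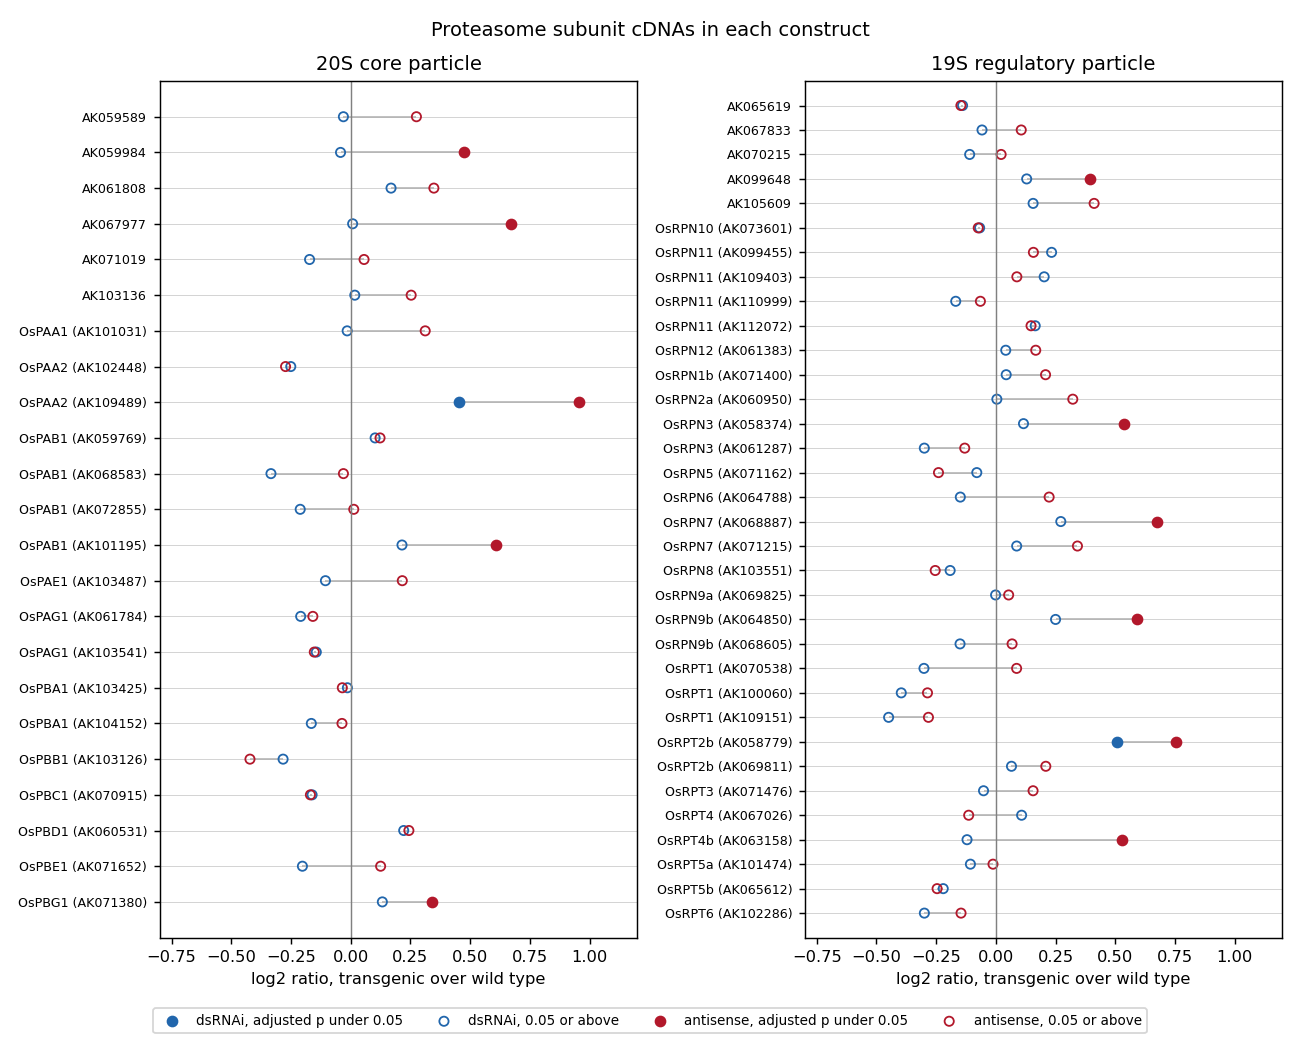
Log2 ratio of transgenic over wild type panicles (x axis) for each tested proteasome cDNA, in dsRNAi (blue) and antisense (red) panicles, with the 20S core particle on the left and the 19S regulatory particle on the right; filled symbols have an adjusted p under 0.05 (limma), and a grey line joins the constructs. Filled symbols are 2 for dsRNAi and 11 for antisense, all above 0, and only OsPAA2 (AK109489) and OsRPT2b (AK058779) are filled in both.

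Among 16 deubiquitinating enzymes, which remove ubiquitin, 2 were called lower and 1 higher in the mean (18.8%, against 41.7% of all probes). AK069300, UBP21 type, fell on all arrays, with -0.95 and -1.05 in dsRNAi and -0.95 and -0.81 in antisense panicles (mean -0.94, or 1.92-fold, SE 0.080, adjusted p = 6.11e-05). All 4 arrays lay close together. AK099704, UBP16 type, had -0.18 and -0.05 in dsRNAi and -0.87 and -0.71 in antisense panicles (mean -0.46, SE 0.081, adjusted p = 0.00294). AK100969, UBP22 type, was called higher at 0.36 (adjusted p = 0.00853). The remaining 13 had means between -0.09 and 0.23.

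The SUMO class held 3 cDNAs described as rice SUMO-1 and 1 described as a SUMO-specific protease. The SUMO-activating types AK072668 and AK111924 are counted with the E1 enzymes above, since their descriptions name ubiquitin activation. AK062434 rose, with 0.70 and 0.63 in dsRNAi and 0.32 and 0.21 in antisense panicles (mean 0.47, SE 0.078, adjusted p = 0.00218). AK058869 had 0.48 and 0.43 in dsRNAi and -0.50 and -0.42 in antisense panicles, and was called higher in dsRNAi and lower in antisense panicles, so that its mean was -0.00 (adjusted p = 0.983). AK069668 had a mean of -0.21 (adjusted p = 0.0806), and the protease AK061799 one of -0.20 (adjusted p = 0.168).

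Of the 4 other ubiquitin-like cDNAs, 1 was called lower and 1 higher in the mean (50%, against 41.7% of all probes). AK065246 is described by At2g17200, a shuttle protein of the DSK2 type in Arabidopsis, which carries ubiquitinated proteins to the proteasome. It had -0.49 and -1.16 in dsRNAi and -1.74 and -0.70 in antisense panicles (mean -1.02, or 2.03-fold, SE 0.18, adjusted p = 0.00257). The spread within each construct was wide, but all 4 arrays were below 0. AK058725, a ubiquitin-like protein described by At5g42300, rose to a mean of 0.40 (adjusted p = 0.0157), with 0.05 and 0.55 in dsRNAi and 0.43 and 0.56 in antisense panicles.

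The difference in ratio between constructs, dsRNAi minus antisense, was called for 7 members of 146 (4.79%), against 16.4% of all probes. The ratio was higher in dsRNAi for 5 and lower for 2 (over all probes, 6.32% higher and 10.1% lower). With median centring 0 of the 7 calls were kept, and 3 were kept with the deposited values, those of AK073278, AK074007 and AK111080. The count lower in dsRNAi was 4 without antisense array 1 and 5 without dsRNAi array 2. The largest was the SKP1 cDNA AK073278, at -3.41 (SE 0.18, adjusted p = 8.9e-05), followed by the E1 cDNA AK074007 at -1.41 (SE 0.16, adjusted p = 0.00117). The ratio was higher in dsRNAi for AK066799 (E2, difference 1.21, adjusted p = 0.00541) and the SUMO-1 cDNA AK058869 (0.92, adjusted p = 0.00681). The same held for AK072668 (0.77, adjusted p = 0.0175), AK099704 (0.67, adjusted p = 0.0288) and AK111080, described as the E2 variant COP10 of light signalling (0.60, adjusted p = 0.0437). AK111080 had 0.08 and 0.13 in dsRNAi and -0.60 and -0.40 in antisense panicles, and was not called in the mean (-0.20, adjusted p = 0.0869).

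Each ratio has a transgenic and a wild type side, and the channels were therefore fitted separately on a normalized log2 intensity scale. For the 7 members called for a difference between constructs, the wild type channels differed between the dsRNAi and the antisense arrays in 7 of 7, and the transgenic channels in 0 of 7. Over all 2957 probes called for that difference and complete on all arrays, the wild type channels were called in 88.8% and the transgenic channels in 6.8%. The channel comparisons were adjusted separately, so differences of equal size can be called in wild type and not in transgenic channels. SKP1 (AK073278) had transgenic levels of 10.8 and 10.7 on the dsRNAi arrays and 11.2 and 11.1 on the antisense arrays. Its wild type levels were 10.6 and 10.5 on the dsRNAi arrays and 7.78 and 7.31 on the antisense arrays. The wild type difference was 2.99 (adjusted p = 1.14e-06) and the transgenic difference -0.42 (adjusted p = 0.207). The low values were thus those of wild type RNA on the antisense arrays, and the other 3 pairs of channels lay within 1 log2 unit of one another.

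The E1 cDNA AK074007 showed the same layout. Its transgenic levels were 8.89 and 8.98 on dsRNAi and 8.98 and 9.24 on antisense arrays, and its wild type levels 9.07 and 9.31 on dsRNAi and 7.86 and 8.05 on antisense arrays (wild type difference 1.23, adjusted p = 0.000149). AK066799 had transgenic levels of 8.26 and 8.15 on dsRNAi and 8.28 and 8.26 on antisense arrays, against wild type levels of 9.23 and 9.56 on dsRNAi and 10.6 and 10.7 on antisense arrays. Here wild type was above transgenic on all arrays, and the gap was wider on the antisense arrays (wild type difference -1.28, adjusted p = 0.000146). For SUMO-1 AK058869 the wild type difference was -0.62 (adjusted p = 0.00624) and the transgenic difference 0.30 (adjusted p = 0.296).

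Over all 146 members the wild type channels differed between dsRNAi and antisense arrays in 33 (22.6%), 12 higher and 21 lower on the dsRNAi arrays, against 32.3% of all probes (16.4% higher and 15.9% lower). The transgenic channels differed in 4 (2.74%), 0 higher and 4 lower, against 2.45% of all probes (1.32% higher and 1.13% lower). With a normexp offset of 10 in place of 50, 1 member was called. Those 4, named because the count is small and chosen after their values were seen, are all proteasome cDNAs and all lower on the dsRNAi arrays: AK068583 (OsPAB1, -1.17), AK061784 and AK103541 (OsPAG1, an alpha 7 subunit, -1.0 and -0.92) and AK071476 (OsRPT3, -0.74). Their wild type levels were lower on the dsRNAi arrays as well, with differences of -0.87, -0.95, -0.93 and -0.53, and the ratio of none was called. Because of the separate adjustment, the counts of wild type and transgenic calls do not compare the sizes of the differences. AK067422, for example, had -0.51 in both (limma), with an adjusted p of 0.034 in wild type and 0.13 in transgenic channels. The arrays of each construct were scanned on their own day with their own software version, so array batch and construct cannot be told apart in comparisons of levels between arrays.

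**Figure D4:**
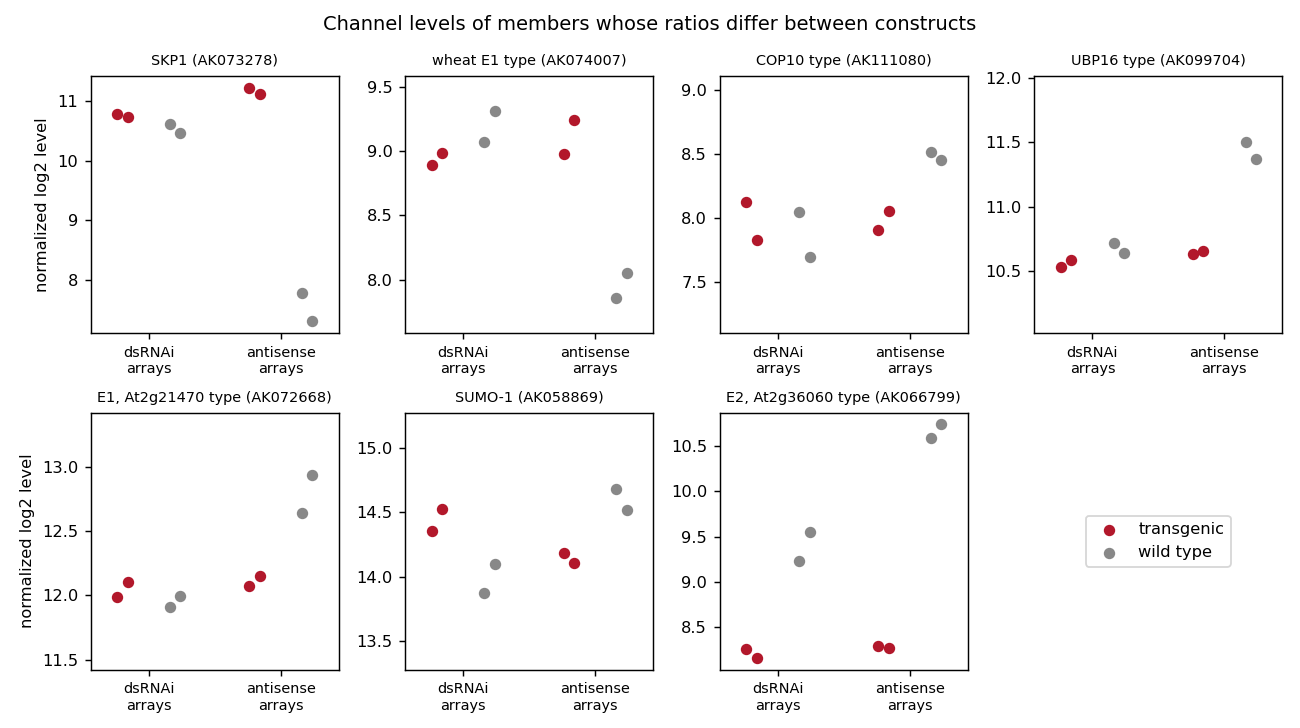
Normalized log2 level (y axis, a separate range in each panel) of the 7 members whose ratio was called different between constructs, in transgenic (red) and wild type (grey) channels, with dsRNAi arrays on the left and antisense arrays on the right of each panel and 1 point per array. For SKP1 the wild type points on the antisense arrays, 7.78 and 7.31, stand apart from the other 6 points, which lie between 10.5 and 11.2.

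Several genes were represented by more than one cDNA, and these did not always move together. Of 29 descriptions shared by several tested members, 17 included a called cDNA beside one that was not called or was called the other way, and 5 spanned at least 0.5 on the log2 scale in the mean. Of these, 2 had cDNAs called in opposite directions, the putative E2 At2g36060 and OsPAA2. For the E2, AK066799 had a mean of -1.79 while AK068060, with 0.55 and 0.06 in dsRNAi and 0.37 and 0.22 in antisense panicles, was called higher at 0.30 (adjusted p = 0.0484) and AK104965 had 0.09. For OsPAA2, AK109489 had 0.70 and AK102448 had -0.26, with -0.39 and -0.11 in dsRNAi and -0.35 and -0.20 in antisense panicles. AK102448 was well above background in 3 of 4 transgenic channels. The other 3 descriptions were SUMO-1, OsPAB1 (0.41 for AK101195, down to -0.18 for AK068583) and OsRPN3 (0.33 for AK058374 and -0.22 for AK061287). Below that span, uncalled cDNAs stood beside a called one for OsRPT2b, OsRPN7 (AK071215, mean 0.21) and OsRPN9b (AK068605, mean -0.04). For OsRPT2b, AK069811 had 0.59 and -0.46 in dsRNAi and -0.06 and 0.48 in antisense panicles. Differences between cDNAs of a description were not tested, so a called cDNA need not differ from an uncalled one. Probes of near-identical family members can share signal, and which gene each cDNA comes from was not examined beyond its description.

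**Figure D5:**
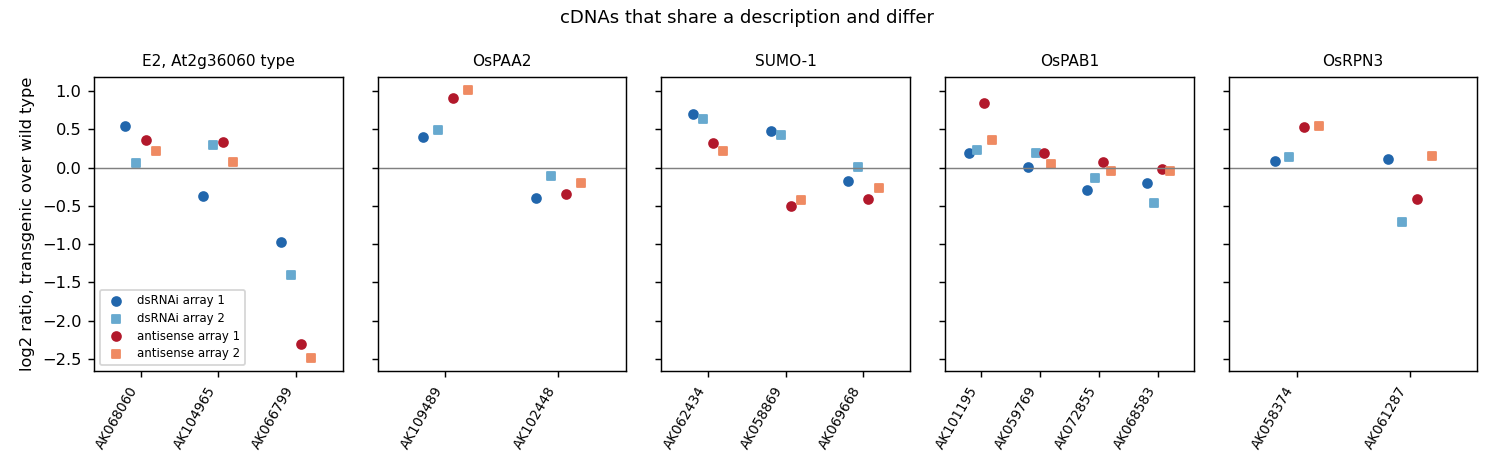
Log2 ratio of transgenic over wild type panicles (y axis) on each of the 4 arrays for tested cDNAs that share a description and span at least 0.5 in the mean; each panel is 1 description and each column 1 cDNA, ordered by the mean. Blue symbols are dsRNAi and red and orange symbols antisense arrays. The 4 values of AK066799 lie between -2.48 and -0.97, below every value of the other cDNAs shown.

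Other genes of the pathway that the rule does not reach, such as RING-type ligases, BTB proteins, COP9 signalosome and autophagy genes, were taken by description. Of 53 such probes 47 were tested, and 17 were called higher and 9 lower in the mean (55.3%, against 41.7% of all probes), with a median of 0.10. RING finger proteins, most of which act as single-chain E3 ligases, held the largest changes. AK100603 and AK071853, both described by At3g61460, rose with means of 1.34 (adjusted p = 1.75e-05) and 1.1 (adjusted p = 5.15e-05). AK100603 had 0.67 and 1.02 in dsRNAi and 1.88 and 1.78 in antisense panicles. AK108311, described as the rice RING finger gene RRF1, fell evenly, with -1.80 and -1.61 in dsRNAi and -1.71 and -1.90 in antisense panicles (mean -1.75, adjusted p = 3.62e-06). AK073728, a RING finger protein named from Lotus japonicus, had a mean of -1.63 (adjusted p = 2.33e-05). AK073342, which shares the Lotus description, had 0.08 (adjusted p = 0.632). Of the other RRF1 cDNAs, named here after their values were seen, AK100240 had a mean of -0.06 (adjusted p = 0.672) and AK059974 one of -0.05 (adjusted p = 0.642), and neither was called. The fourth, AK108851, had a mean of 0.93 (adjusted p = 0.00129), with 0.78 on dsRNAi array 2 and 0.86 and 1.31 on the antisense arrays. Its spot on dsRNAi array 1 was left out as an outlier.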

How the data were processed

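The sources were the scanner files of 4 Agilent 2-colour arrays and a deposited value table. Per the file headers, spot intensity was extracted with Agilent Feature Extraction 8.1.1.1 on the antisense and 9.1.3.1 on the dsRNAi arrays, and the software's log10 ratio of red over green was background-subtracted and dye-normalized. The scale and centring of the authors' deposited log2 table are not stated. Its values changed by 3.26 to 3.31 per unit of the log10 ratio and its medians, turned to transgenic over wild type, were -0.04 to 0.08.

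From the intensities, background was corrected with normexp (offset 50), each array was normalized by loess, and control and outlier spots were left out. Probes well above background in a channel on at least 2 arrays were kept. limma 3.58.1 in R 4.3.3 fitted 1 coefficient per construct to log2 ratios of transgenic over wild type, with Benjamini-Hochberg adjustment. For channels taken separately, Aquantile followed loess (intraspot correlation 0.245) on 17997 probes complete on all arrays. The number of arrays limits the precision.

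On simulated data for the mean of both constructs (18094 probes), 11.2% of 80 probes changed by 0.5 (log2), 63.7% of 80 changed by 1 and 92.5% of 40 changed by 2 were recovered, with 1 false call. Far fewer probes were changed there than the 41.7% called in the data, and the adjusted p depends on that share. These recoveries therefore do not measure how sensitive the calls above are.

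Members and lists were chosen with earlier results of these data known. Named members are the 10 largest rises and 10 largest falls called with 1 sign on all arrays, the best 2 of each class, up to 5 called differences between constructs each way, and tested cDNAs that share a description with one of these. Others, named to complete a count or to show a range, were chosen after their values were seen. No member accession was found in the RefSeq gene table, and 14 of 33 rice gene names in the descriptions were, so names are those of the array design. Alternatives changed the offset, the normalization, the filter, the saturated spots, the variance model, the dye term and the arrays used.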

Additional observations from a re-analysis of the deposited data

Results flagged for a closer look

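For 7 members the response differed between the constructs by the test of dsRNAi minus antisense (limma, adjusted over all tested probes). The differences in log2 ratio were -3.41 for the SKP1 cDNA AK073278 and -1.41 for the E1 cDNA AK074007. The ratios of both were lower in dsRNAi than in antisense panicles. The other differences were 1.21 for the E2 cDNA AK066799, 0.92 for the SUMO-1 cDNA AK058869 and 0.77 for AK072668. They were 0.67 for the UBP16 type AK099704 and 0.60 for the COP10 type AK111080. The ratios of these cDNAs were higher in dsRNAi than in antisense panicles. In all 7 the transgenic channels were not called different between the constructs' arrays and the wild type channels were. With median centring 0 of the 7 calls were kept, and 3 were kept with the deposited values. Array batch and construct cannot be told apart here.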

How the results depend on the processing

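No paired analysis was possible because the replicate numbers only follow the order of the samples and mark the dye orientation, so a replicate block would be a dye term. The dye orientation itself was called for 0 of 146 members and 0 of 17997 probes (limma), with 8 members and 1860 probes at an unadjusted p under 0.05.

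Median centring left 2 members higher and 3 lower in the mean (3.42%, against 6.17% of all probes). It left 0 and 0 in dsRNAi panicles, 1 and 2 in antisense panicles, and 0 and 0 for dsRNAi minus antisense. With both pairs of arrays averaged, 0 members were called higher and 0 lower in the mean, as were 0 of 18094 probes, while 12 members had an unadjusted p under 0.05. The construct as a random block left 5 higher and 4 lower (6.16%, against 14.4% of all probes). Averaging the antisense arrays left 18 higher in the mean, 13 higher in antisense panicles and 3 higher for dsRNAi minus antisense. The antisense value then has no spread of its own, and the dsRNAi pair alone gives it, as it does where an antisense array is left out. That last count was 3 with an offset of 10 and 2 with the deposited table, and the dye term gave 6 lower. Differences in the transgenic channels fell to 1 call with an offset of 10. The cause of these shifts was not tested. Signal over background limited the set to 146 of 154 members.

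With saturated spots left out 144 members were tested, and AK061956 and AK059011 could not be. Leaving out single arrays gave 18 to 25 higher and 11 to 18 lower in the mean, 4 to 8 and 5 to 10 in dsRNAi panicles, 11 to 27 and 9 to 16 in antisense panicles, and 4 to 6 and 2 to 5 for dsRNAi minus antisense. Of the 42 members called in the mean, 22 were called whichever array was left out, 13 higher and 9 lower. The mean of AK058869, -0.00, changed sign with an offset of 10 (0.033), the deposited table (0.15), median centring (0.025) and in part of the fits without single arrays, which ran from -0.023 to 0.018. Of 561 values of named members under the alternatives, 445 kept direction and side of the threshold, 111 lost their call and 5, all of AK058869, changed sign.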
